A study of Bos taurus with 16 samples.

Results

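Interferon-induced genes are switched on when a cell senses viral nucleic acid or receives an interferon signal, and their products act against viruses inside the cell. A set of 9 such genes was examined in the rumen wall of growing steers: MX1, MX2, ISG15, IFI6, IFIT1, IFIT2, IFIT3, IFITM3 and RSAD2. Members were taken by symbol, from the exon regions that the deposited coverage file lists under each name. The file lists exon regions for 7 of the 9, among 12012 genes with exon regions in all, and it has no row for IFIT1 or IFIT2. The set was proposed with earlier results of these data in view. It was chosen by gene symbol together with exon coverage across the groups, and is named for MX1. The group levels of MX1 are therefore given as a description without a test.

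Rumen papillae, the small projections of the rumen wall that absorb the products of fermentation, were clipped from 16 crossbred steers aged 344 ± 48 days, with 1 library of polyadenylated RNA per animal. No treatment was given: animals had free access to the same corn-based ration and were chosen for where they fell in weight gain and in dry matter intake, each split in high and low. Each of the 4 groups held 4 animals. They were those of high gain that ate much (high intake, HG-HI), those of high gain that ate little (low intake, HG-LI), those of low gain that ate much (LG-HI) and those of low gain that ate little (LG-LI). The series title frames the question as differences in rumen transcripts with feed intake and gain. Because animals were selected and not assigned, gain and intake describe the animals and are not interventions.

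Interferons bind receptors on the cell surface, and kinases bound to these receptors then start a signal that turns on interferon-stimulated genes in the nucleus. In a covering epithelium such as that of the rumen, this program forms part of the defence against microbes that reach the wall. In bulk tissue, a lower level can come from fewer cells of a type or from less RNA per cell, and these cannot be told apart.

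A level is the average coverage per base over the best covered exon region of a gene, which the authors scaled so that library totals were nearly equal. The estimated depth was 15.1 to 20.8 M reads in HG-HI, 15.2 to 21.2 M in HG-LI, 11.9 to 16.2 M in LG-HI and 13.9 to 16.4 M in LG-LI. Coverage of first exons was low in 5 libraries, namely HG-HI replicate 4, HG-LI replicates 2, 3 and 4, and LG-LI replicate 3. Their first-exon index, the log2 coverage of first exons relative to later exons, ran from -4.66 to -3.73, against -2.79 to -1.38 in the other 11. Among the 9447 genes tested, 276 to 1211 were listed at 0 in each of these 5, and 89 to 175 in each of the remaining 11, so differences in which they weigh are also given without them, which leaves 1 library of HG-LI. Markers of keratinocytes, the cells of the papilla surface, were abundant in every library, with summed levels of 1298 to 5406 over the 11 of 12 that are listed.

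MX1 encodes a dynamin-like GTPase that blocks the replication of many RNA viruses. Its best covered region was exon 14, 243 bases on chromosome 1 from 143200745 to 143200987 (UMD3.1). The 4 libraries stood at 2.90, 1.37, 0.99 and 2.01 in HG-HI, and at 1.91, 1.66, 1.31 and 3.70 in HG-LI. They stood at 3.77, 6.15, 4.82 and 5.85 in LG-HI, and at 1.19, 0.93, 1.06 and 0.99 in LG-LI. All 4 libraries of LG-HI lay above the other 12, with the lowest of them at 3.77 and the highest of the others at 3.70. Such a separation of LG-HI was seen in 8 of the 9447 tested genes, 0.0847%; as coverage across the groups had a part in choosing the set, nothing is read from this share.

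The mean level of MX1 was 1.82 ± 0.835 in HG-HI, 2.15 ± 1.07 in HG-LI, 5.15 ± 1.08 in LG-HI and 1.04 ± 0.112 in LG-LI (SD, n = 4 each). The 2 high gain groups overlapped, and LG-LI had the smallest SD. Within low gain, all 4 libraries at high intake lay above all 4 at low intake, while within high gain the libraries at high and low intake overlapped. On the log2(level + 0.1) scale, the intake effect at high gain minus that at low gain was -2.41. The difference HG-LI minus LG-HI was -1.31, and high minus low intake over both gain levels was 0.98. These are given as sizes only. Without the 5 libraries low in first exons these were -2.44, -1.36 and 0.97.

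**Figure D1:**
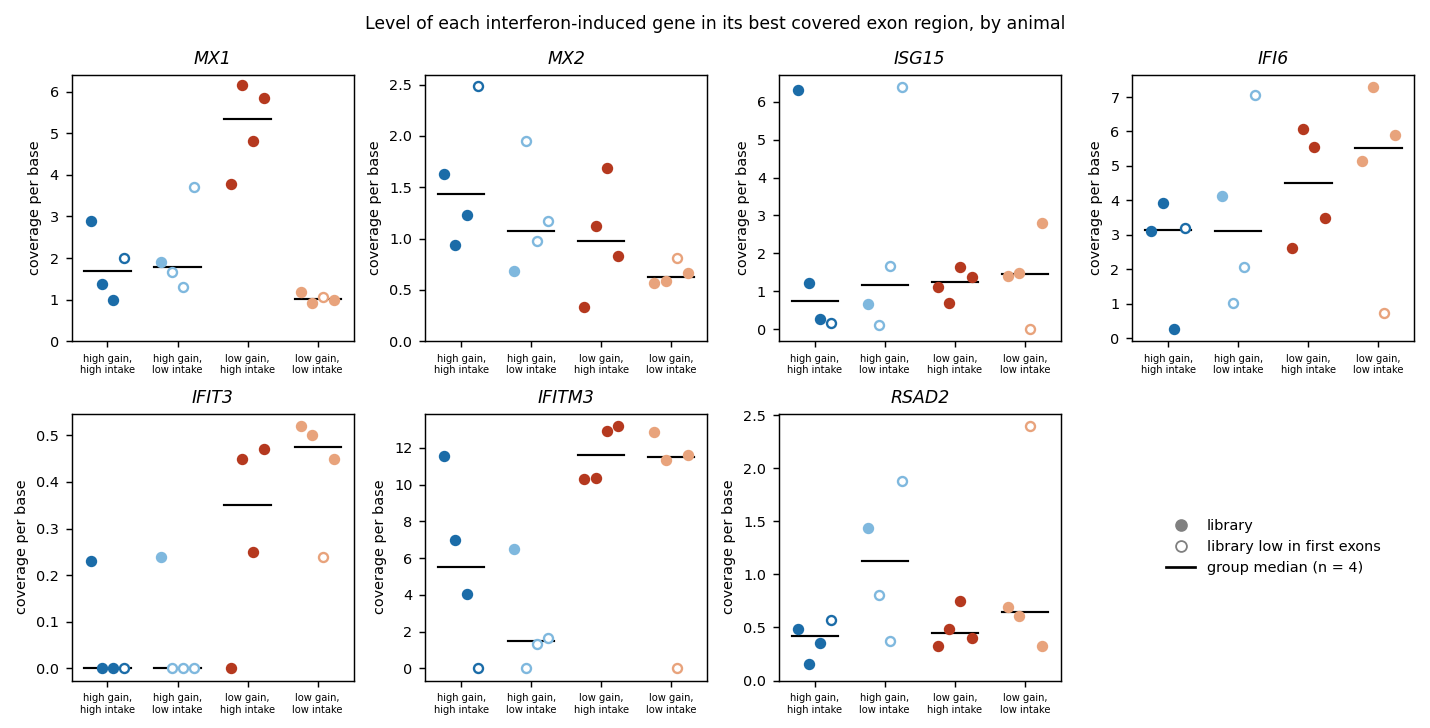
Coverage per base of the best covered exon region of each listed gene, by group. Each point is 1 library, open points are the 5 libraries low in first exons and the black bar is the group median; MX1 in LG-HI lies at 3.77 to 6.15, above all other libraries.

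The separation of MX1 depended on the region read. The file lists 14 exon regions of MX1, from exon 2 to exon 15, and the group mean was highest in LG-HI in all 14. Across all tested genes, the highest group mean fell in LG-HI in 40.9%. The lowest mean of an MX1 exon region fell in LG-LI in 9, in HG-HI in 4 and in HG-LI in 1. Averaged over all exon bases, the level ran from 0.42 to 1.73 in HG-HI, from 0.52 to 1.86 in HG-LI, from 1.44 to 3.71 in LG-HI and from 0.51 to 0.72 in LG-LI. By this measure the groups overlapped, because replicate 1 of LG-HI lay below 1 library of each high gain group.

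**Figure D2:**
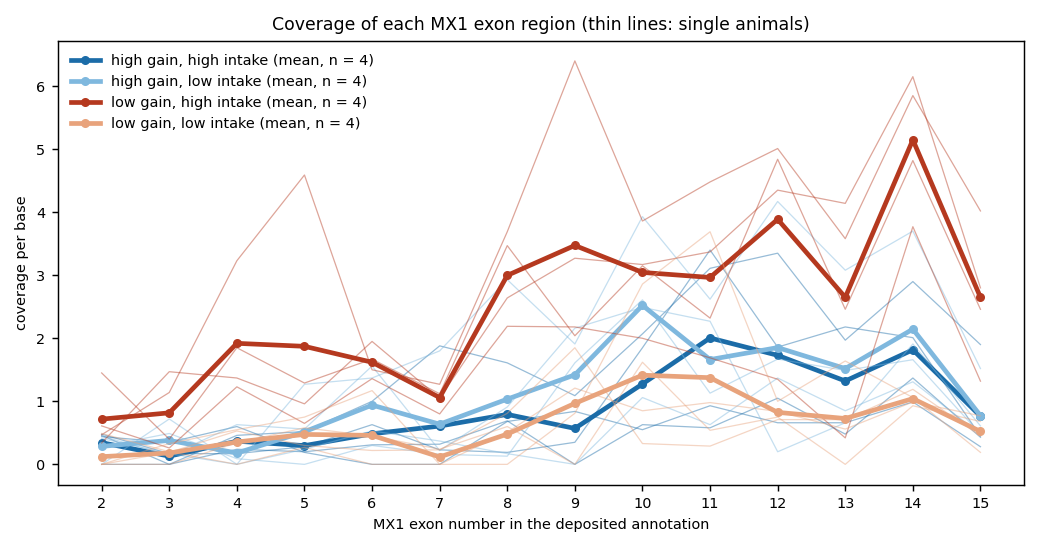
Coverage per base of the 14 listed exon regions of MX1, by exon number, with thick lines for the mean of the 4 libraries of each group and thin lines for single animals. The thick line of LG-HI is the highest in all 14 regions.

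Depth behind MX1 was modest. The best region held an estimated 5.6 to 40.9 reads per library and 262 in all, and the 14 regions together held 1947. MX1 intron regions, 109 regions with 8216 bases, held 4.0 to 39.7 estimated reads per library. Summed intron coverage (level times length) was 0.57 to 1.19 kilobases in LG-HI and 0.170 to 1.43 kilobases in the other 12, with the highest value in HG-LI replicate 4. The intron values of the groups overlapped.

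MX2 encodes a relative of MX1 and lies beside it on chromosome 1, with 18999 bases between the last listed exon region of MX2 and the first of MX1. The region with the most coverage was exon 15, 2084 bases from 143154240 to 143156323. The libraries stood at 1.63, 0.94, 1.23 and 2.49 in HG-HI, and at 0.68, 1.95, 0.98 and 1.17 in HG-LI. In LG-HI they stood at 0.33, 1.12, 1.69 and 0.83, and in LG-LI at 0.57, 0.59, 0.81 and 0.66. The order was thus not that of MX1: LG-HI held both the lowest library and 1 of the 3 highest.

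MX2 had a mean of 1.38 ± 0.601 in high gain animals and 0.825 ± 0.419 in low gain animals (SD, n = 8 each), with 7 of 8 high gain libraries above the low gain median of 0.735. The log2 difference was 0.70 (SE 0.32, limma adjusted p = 0.847 over 9447 genes), so it did not pass the threshold of 0.05. Among the 11 libraries not low in first exons, MX2 ran from 0.68 to 1.63 at high gain (n = 4) and from 0.33 to 1.69 at low gain (n = 7), with a log2 difference of 0.31 (SE 0.40).

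ISG15 encodes a ubiquitin-like protein that is attached to other proteins and can also be released from cells. The gene was read in exon 2, 532 bases on chromosome 16 from 52714624 to 52715155. The libraries stood at 6.31, 1.22, 0.26 and 0.15 in HG-HI, and at 0.66, 0.11, 1.67 and 6.40 in HG-LI. In LG-HI they stood at 1.11, 0.68, 1.65 and 1.37, and in LG-LI at 1.41, 1.49, 0 and 2.81. The 2 highest libraries belonged to the 2 high gain groups, and each of those groups also held 1 of the 3 lowest. The 3 lowest, at 0, 0.11 and 0.15, and the highest, at 6.40, were all low in first exons. The spread between animals of 1 group was larger than any difference between sides: gain differed by -0.03 (SE 0.87) and intake by 0.07 (SE 0.87) on the log2 scale, with limma adjusted p of 0.992 and 0.966. Without the 5 libraries these were -0.56 (SE 0.69) for gain and 0.16 (SE 0.69) for intake.

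IFI6 encodes a small membrane protein that limits cell death and the replication of some viruses. Exon 5 had the most coverage, over 262 bases on chromosome 2 from 126249921 to 126250182. It stood at 3.12, 3.92, 0.27 and 3.19 in HG-HI, and at 4.14, 1.04, 2.08 and 7.05 in HG-LI. It stood at 2.62, 6.07, 5.54 and 3.49 in LG-HI, and at 5.15, 7.30, 0.75 and 5.90 in LG-LI. All groups overlapped, and 2 of the 3 lowest libraries, at 0.75 and 1.04, were low in first exons. The log2 difference for gain was -0.73 (SE 0.59, limma adjusted p = 0.847), with 7 of 8 high gain libraries below the low gain median of 5.35. Without the 5 libraries low in first exons it was -0.94 (SE 0.62).

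IFITM3 encodes a membrane protein that hinders virus entry from endosomes, and is known to have been discussed by the study's authors, so it is not independent of these samples. The level is that of exon 2, 147 bases on chromosome 29 from 51367920 to 51368066. It stood at 11.54, 6.99, 4.03 and 0 in HG-HI, and at 6.52, 0, 1.33 and 1.67 in HG-LI. It stood at 10.33, 10.34, 12.93 and 13.19 in LG-HI, and at 12.87, 11.34, 0 and 11.61 in LG-LI. The 5 libraries low in first exons held the 5 lowest values, 0 to 1.67, against 4.03 to 13.19 in the other 11. The share of all tested genes that separate these libraries in this way was not computed. Nothing particular to IFITM3, or to the pathway genes below, is read from such a separation.

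Leaving those libraries aside, IFITM3 ran from 4.03 to 11.54 in 4 high gain libraries and from 10.33 to 13.19 in 7 low gain libraries. These sets overlapped by 1 high gain library, and their first-exon index also differed, at -2.79 to -1.97 in the high gain and -2.09 to -1.38 in the low gain libraries. Over all 16 libraries the log2 difference was -1.98 for gain (SE 1.23, limma adjusted p = 0.847), and -3.36 for HG-LI minus LG-HI (SE 1.74, adjusted p = 0.375). Without the 5 libraries the gain difference was -0.80 (adjusted p = 0.220), and with the first-exon index as a covariate it was 1.10 (adjusted p = 0.0864). The part of the first-exon coverage in the IFITM3 values was not tested. In the authors' deposited table this exon is the only 1 of the 54 exon regions of the 7 genes that carries their mark, by a rule that is not stated. Of all 2351373 regions deposited, 7063 carry the mark. The RefSeq gene table gives IFITM3 as a synonym of 2 genes on chromosome 29, so reads may be split between copies and the level is uncertain.

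**Figure D3:**
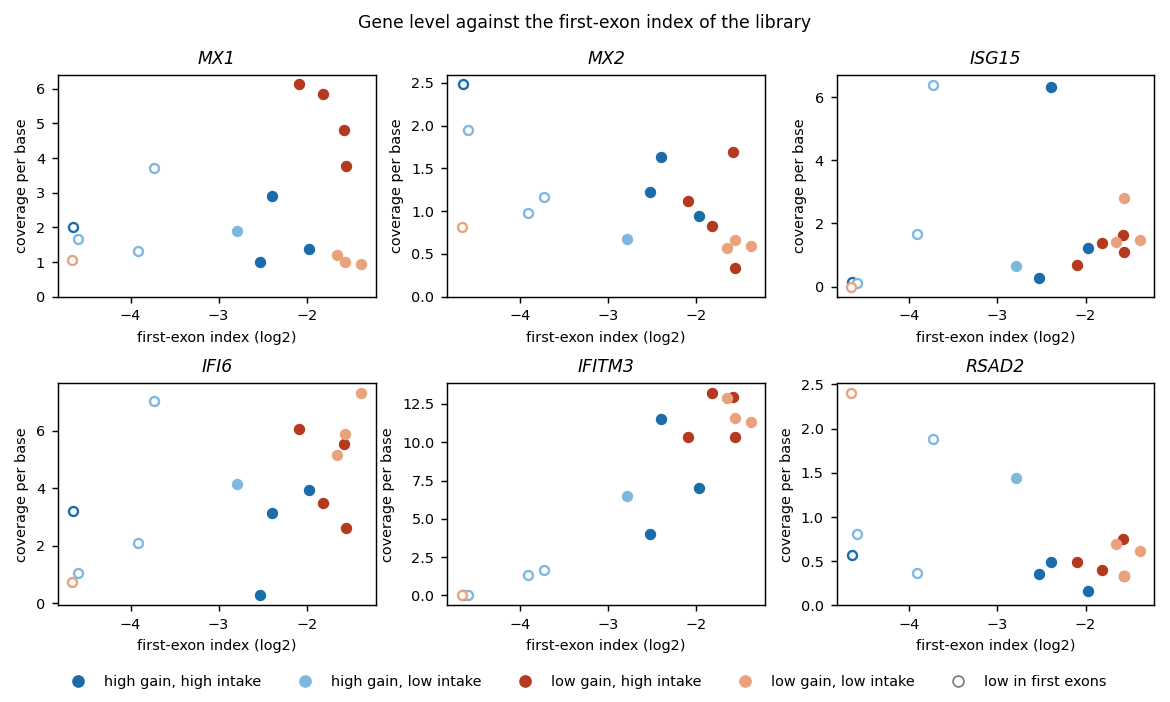
Level of each gene against the first-exon index of the library, 1 point per library. The 5 libraries with an index of -4.66 to -3.73 hold the 5 lowest IFITM3 levels, 0 to 1.67, while MX1 spans 1.06 to 3.70 in them.

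RSAD2 encodes viperin, a radical SAM enzyme that makes a chain-terminating nucleotide against viral polymerases. Coverage was highest over exon 6, 2371 bases on chromosome 11 from 90011837 to 90014207. It stood at 0.49, 0.16, 0.35 and 0.57 in HG-HI, and at 1.44, 0.81, 0.37 and 1.88 in HG-LI. It stood at 0.33, 0.49, 0.75 and 0.40 in LG-HI, and at 0.69, 0.61, 2.40 and 0.33 in LG-LI. The 3 highest libraries were at low intake, and 2 of them were low in first exons.

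RSAD2 averaged 0.443 ± 0.177 at high intake and 1.07 ± 0.758 at low intake (SD, n = 8 each), with 7 of 8 high intake libraries below the low intake median of 0.75. The log2 difference was -0.91 (SE 0.40, limma adjusted p = 0.528), and -1.01 (SE 0.39) over the 11 libraries not low in first exons. In those 11, HG-LI is the single library at 1.44, while within low gain LG-HI ran from 0.33 to 0.75 and LG-LI from 0.33 to 0.69, so the value rests on 1 library. The direction over all 16 was opposite to that of MX1, for which 7 of 8 libraries at high intake exceeded the median at low intake, 1.25.

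IFIT3 encodes a tetratricopeptide protein that works with IFIT1 and IFIT2 in binding foreign RNA. Its best covered region was exon 2, 160 bases on chromosome 26 from 11089867 to 11090026, with at most 2 estimated reads per library and 14 in all. It was listed at 0 in 7 libraries and reached 0.5 in 2, so it did not pass the filter. Values were 0.23, 0, 0 and 0 in HG-HI, 0.24, 0, 0 and 0 in HG-LI, 0, 0.45, 0.25 and 0.47 in LG-HI, and 0.52, 0.50, 0.24 and 0.45 in LG-LI. High gain libraries held 2 values above 0 and low gain libraries 7, all within about 2 reads. Of the 7 libraries at 0, 4 were low in first exons, all of them at high gain. Fitted without the filter, the log2 gain difference was -1.59 (SE 0.44, limma adjusted p = 0.787). The difference rests on that region: averaged over all 8 exon regions, which held 114 estimated reads, IFIT3 stood at 0.144 ± 0.0833 in high gain animals and 0.144 ± 0.0478 in low gain animals (SD, n = 8 each).

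MX1 is left out of the member counts and medians in this paragraph, as its levels had a part in the choice of the set. In the fit across all 9447 genes, 0 of the other 5 tested members passed the adjusted threshold in any of the 4 comparisons. The background was the same, with 0% of genes called in each (limma, Benjamini-Hochberg), and limma without the trend and robust options also called 0. At an unadjusted p under 0.05, genes numbered 500 for gain (5.29%, with 0.974% higher and 4.32% lower), 782 for intake (8.28%, with 2.47% higher and 5.81% lower), 49 for the interaction (0.519%, with 0.148% higher and 0.37% lower) and 1272 for HG-LI minus LG-HI (13.5%, with 4.11% higher and 9.36% lower). MX2 was past that mark for gain, on the higher side, and RSAD2 for intake, on the lower side. The median log2 difference of the 5 was -0.03 for gain, against -0.04 over all genes, and 0.07 for intake, against -0.01 over all genes. For the interaction it was -0.60, against -0.01 over all genes, and for HG-LI minus LG-HI -0.10, against 0.01 over all genes.

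**Figure D4:**
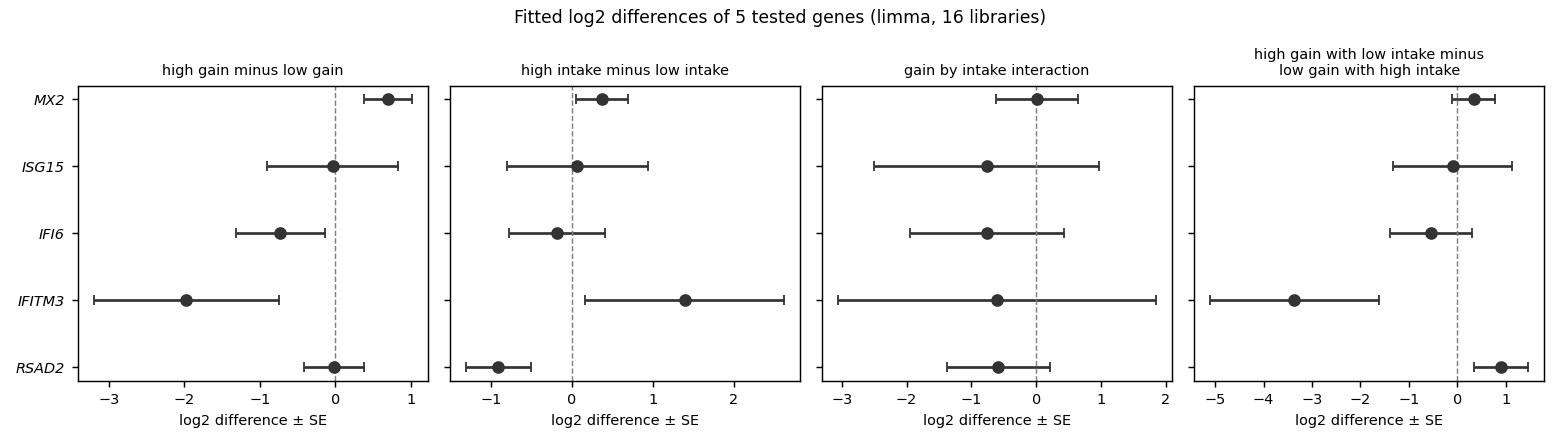
Log2 differences of the 5 tested genes other than MX1 in the 4 comparisons, with limma standard errors as bars. For gain and for the interaction only MX2 lies above 0, at 0.70 (SE 0.32) and 0.01 (SE 0.63). For intake and for HG-LI minus LG-HI the genes lie on both sides of 0. The bars of ISG15 and IFITM3 are the widest.

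Levels of the members followed each other weakly. Over the 11 libraries not low in first exons, the 15 pairs of the 6 tested members had Pearson r from -0.194 to 0.764. The median was 0.139, and 12 were above 0. MX1 is included here, in the median, the count and the adjustment. Its pairs had r from 0.073 to 0.407, and nothing is read from them, as MX1 had a part in the choice of the set. After Benjamini-Hochberg adjustment over 15 pairs, 0 reached 0.05 (permutation tests). Each r was also taken without the 2 libraries farthest from the median log2 level of the first gene named in the pair. ISG15 and IFITM3 had r = 0.696 (permutation p = 0.0196, adjusted 0.2005) and Spearman's rho = 0.718 (permutation p = 0.0165, adjusted 0.248), with r = 0.561 without the 2 farthest libraries. IFI6 and IFITM3 had r = 0.764 (permutation p = 0.0267, adjusted 0.2005) and rho = 0.327 (permutation p = 0.3285), and r fell to 0.163 without the 2 farthest libraries, so it rests on those. The same step moved other pairs as far: r of IFITM3 and RSAD2 was 0.124 with all 11 libraries and 0.801 without the 2 farthest, and that of MX2 and IFI6 was -0.194 and -0.51.

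**Figure D5:**
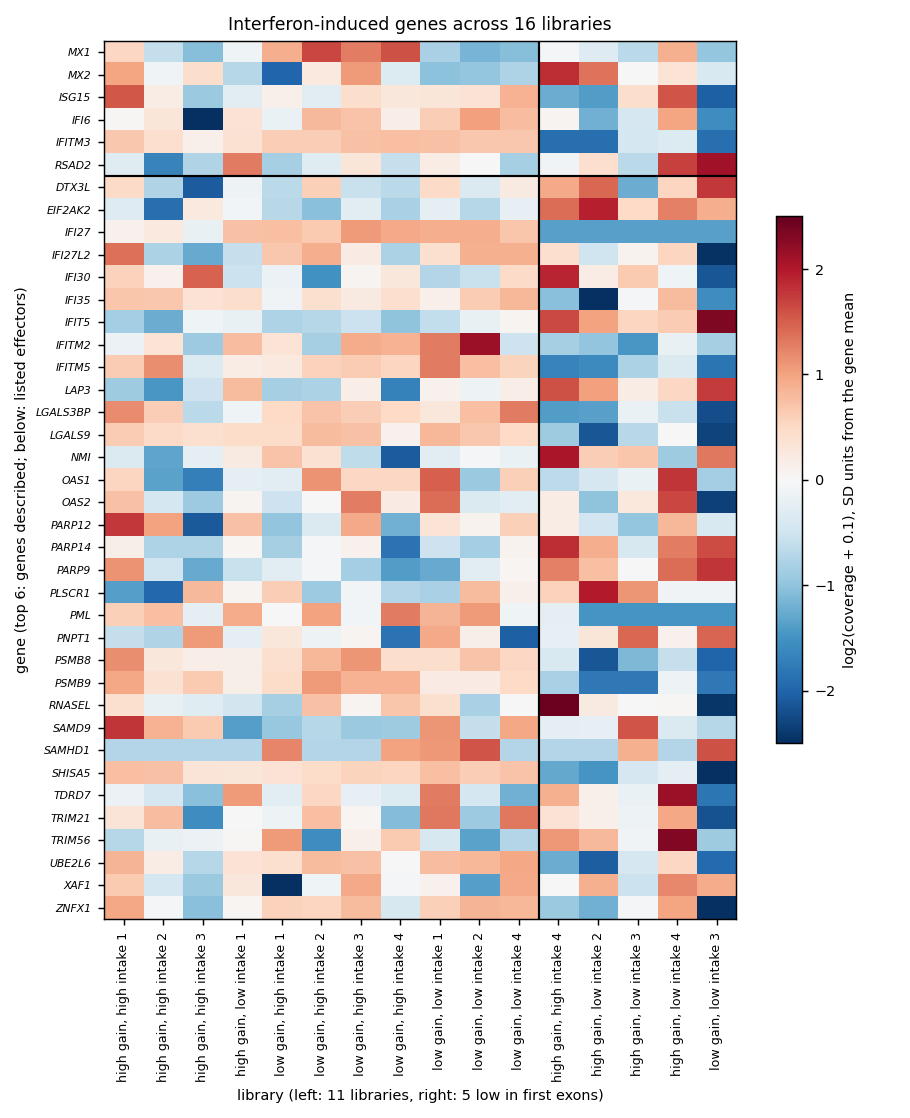
Log2(coverage + 0.1) in SD units from each gene's mean, for the 6 tested genes (top) and 33 other interferon-stimulated effectors (below), with the 11 libraries not low in first exons at left and the 5 low ones at right. MX1 is above its mean in the 4 libraries of LG-HI, and IFITM3 and IFI27 are below their means in all 5 libraries at right.

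The rest of the interferon pathway was read from 7 lists of 127 genes, of which 77 were listed and 65 tested. None passed the adjusted threshold in any comparison (limma, smallest adjusted p 0.369). At an unadjusted p under 0.05, 1 was higher and 2 lower for gain, 3 higher and 1 lower for intake, 1 higher and 0 lower for the interaction, and 3 higher and 7 lower for HG-LI minus LG-HI. In all these were 4.62% of the 65 for gain, 6.15% for intake, 1.54% for the interaction and 15.4% for HG-LI minus LG-HI, against shares over all genes of 5.29%, 8.28%, 0.519% and 13.5%. Of 21 interferon genes, the file lists IFNK, IFNT and IFNG, and none reached the filter. The receptors were measured in 5 of 7, all 5 with positive gain differences, as in 46.1% of all genes, and none past an unadjusted p of 0.05: IFNAR2, a chain of the type I receptor, averaged 3.23 ± 1.53 in high gain animals and 2.57 ± 0.703 in low gain animals (SD, n = 8 each), a log2 difference of 0.25 (SE 0.27, limma adjusted p = 0.847).

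Signalling genes were measured in 10 of 12, with 4 positive and 6 negative gain differences. TYK2, a kinase bound to interferon receptors, averaged 4.34 ± 1.11 in high gain animals and 3.43 ± 1.01 in low gain animals (SD, n = 8 each). The log2 difference was 0.33 (SE 0.19, limma adjusted p = 0.847). IRF7, which drives interferon transcription, ran from 0.49 to 4.35 in HG-LI and from 9.12 to 14.14 in LG-HI, a log2 difference of -3.16 (SE 1.34, limma adjusted p = 0.369). In the 5 libraries low in first exons, 3 of which belong to HG-LI, IRF7 ran from 0.06 to 1.55, against 4.35 to 15.67 in the other 11. Without those 5 the IRF7 difference was -1.40 (SE 0.55).

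Sensors and adaptors were tested in 8 of 15. TBK1, the kinase that activates IRF3, averaged 3.42 ± 0.795 in HG-LI and 1.56 ± 1.04 in LG-HI (SD, n = 4 each), a log2 difference of 1.38 (SE 0.64, limma adjusted p = 0.369). It ran from 2.28 to 7.26 in the 5 libraries low in first exons, against 0.30 to 3.45 in the other 11, and the difference without the 5 was 1.42 (SE 0.91). IKBKE, a related kinase, differed by -3.75 (SE 1.34, adjusted p = 0.369) in the same comparison and was listed at 0 in the 5 libraries low in first exons. Without them it differed by -0.79 (SE 0.33). All 6 genes of ISG15 attachment and removal were measured, 3 with positive and 3 with negative gain differences, and antagonists were measured in 5 of 6, 2 positive and 3 negative. USP18, which removes ISG15 and damps receptor signalling, averaged 2.74 ± 1.27 in HG-LI and 1.5 ± 0.452 in LG-HI (n = 4 each), a log2 difference of 0.78 (SE 0.46, adjusted p = 0.385), and 0.25 (SE 0.70) without the 5 libraries.

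Other interferon-stimulated effectors were tested in 33 of 62, with 17 positive and 16 negative gain differences. PSMB8 and PSMB9 encode immunoproteasome subunits. PSMB9 had a log2 intake difference of 2.06 (SE 0.74, limma adjusted p = 0.528), and its levels were 0 to 1.10 in HG-LI and 1.69 to 3.84 in LG-HI. PSMB8 averaged 4.41 ± 2.3 at high intake and 2.18 ± 1.87 at low intake (n = 8 each), a log2 intake difference of 1.5. In the 5 libraries low in first exons PSMB9 ran from 0 to 0.74 and PSMB8 from 0.16 to 1.49, against 1.10 to 3.84 and 2.68 to 7.87 in the other 11. Without the 5 the intake differences were 0.96 (SE 0.31) for PSMB9 and 0.39 (SE 0.34) for PSMB8. HERC6, from the ISG15 list, averaged 0.79 ± 0.352 at high intake and 1.2 ± 0.382 at low intake, a difference of -0.60 (SE 0.30, limma adjusted p = 0.528), and -0.39 (SE 0.39) without the 5.

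IFI27, an interferon alpha-inducible gene, ran from 0 to 6.93 at high gain and from 0 to 13.85 at low gain. Its gain difference was -3.34 (SE 1.15, limma adjusted p = 0.847), and it was listed at 0 in all 5 libraries low in first exons. Without those 5 it was -1.32 (SE 0.32, limma adjusted p = 0.0992). IFI30, a lysosomal thiol reductase of antigen processing, averaged 20.6 ± 6.05 in high gain animals and 14.4 ± 4.06 in low gain animals (n = 8 each), a difference of 0.52 (SE 0.21, adjusted p = 0.847), and 0.19 (SE 0.23) without the 5. These values run in both directions within the list, as its medians near 0 show: 0.08 for gain and -0.05 for intake.

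Likeness to MX1 was measured over all 16 libraries and over the 11 not low in first exons. By Pearson r of the log2 levels over the 16, the 10 highest were APEG3 (0.74), NOTCH4 (0.73), LOC524771 (0.73), RBM15B (0.70), CD5 (0.70), ANAPC11 (0.69), NUDT6 (0.68), WTIP (0.66), CLDN11 (0.65) and DNAJC14 (0.65). None of the 10 is in the 7 pathway lists. These lists hold only 65 of the 9447 tested genes, so nothing is read from their absence among 10 genes. Over the 11, r of these genes ran from 0.60 for DNAJC14 to 0.86 for WTIP. By r over these 11, the listed interferon gene PSMB9 (0.72) ranked 30 of all genes, above ANAPC11 at 33, CD5 at 34 and DNAJC14 at 117. All r share the same libraries. Coverage differed: CLDN11 averaged 0.53 in LG-HI and was listed at 0 in every library of HG-HI and of LG-LI, while DNAJC14 averaged 11.4 to 15.0 over the groups.

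Among pathway genes, OAS1, an enzyme that senses double-stranded RNA, had r = 0.53 with MX1 over the 16 libraries, rank 66 of all genes, and 0.46 over the 11. OAS2, its relative, had r = 0.44 over the 16 and 0.31 over the 11. PSMB9 had 0.45 over the 16, and the member IFI6 had 0.36 over the 16 and 0.20 over the 11. The median r with MX1 was 0.151 over the 65 tested pathway genes and 0.058 over all genes, and over the 11 libraries -0.023 and -0.027. OAS1 averaged 0.773 in HG-HI, 1.58 in HG-LI, 1.60 in LG-HI and 1.46 in LG-LI, so its group order was not that of MX1.

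Markers of other cell types were read beside MX1. Over the 6 pan-leukocyte markers, the summed level was 10.4 to 35.1 in LG-HI and 10.1 to 34.7 in the other 12. For 11 T and NK cell markers it was 17.4 to 46.8 in LG-HI and 12.4 to 71.0 in the other 12. For 10 of 14 macrophage and dendritic cell markers it was 33.2 to 62.0 in LG-HI and 22.9 to 54.4 in the other 12. The B and plasma cell sum, over 4 of 8 markers with none past the filter, was 0.17 to 1.05 in LG-HI and 0 to 3.38 in the other 12. Fibroblast markers summed to 144 to 296 in LG-HI and 136 to 900 in the other 12, and endothelial markers to 20.2 to 25.8 in LG-HI and 9.71 to 31.5 in the other 12. Smooth muscle markers summed to 35.5 to 44.6 in LG-HI and 2.89 to 105 in the other 12. The neutrophil sum, 3387 to 4813 in LG-HI and 1900 to 5687 in the other 12, was nearly all S100A12, which epithelium also expresses. In each of these lists the 2 sets of libraries overlapped. CD5, among the 10 genes most like MX1, is a T cell marker, and the group mean was highest in LG-HI for 3 of 8 tested T and NK cell markers (CD2, CD5 and NKG7) and for 6 of 9 tested macrophage and dendritic cell markers. Those 6 are CSF1R, TYROBP, FCER1G, C1QA, C1QB and C1QC, and the T and NK cell sum is mostly CD3D and CD3G, which do not share this order. C1QA averaged 1.53 in HG-LI and 3.14 in LG-HI, and CD5 0.248 in HG-LI and 1.04 in LG-HI. In HG-LI replicates 2, 3 and 4, all low in first exons, C1QA stood at 0.46, 0.80 and 1.38. HG-LI replicate 1, which is not low in them, stood at 3.48 for C1QA, above the mean of LG-HI, and at 0.31 for CD5. In that library FCER1G, at 1.23, was also above its LG-HI mean of 0.975. CSF1R (2.01), TYROBP (2.06), C1QB (1.72) and C1QC (1.08) were below theirs, which were 3.62, 3.92, 2.145 and 3.08. Across all tested genes the share highest in LG-HI, by mean log2 level, was 40.9%. The part of cell composition in the MX1 values was not tested.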

How the data were processed

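Rumen papillae RNA of 16 steers was sequenced as single reads of 50 bases after oligo-dT selection, per the labels' protocols. The submitters' processing notes name TopHat2 2.08b and the bovine build UMD3.1; annotation and quantification tool: not given in the sources used here. A single deposited file holds 2351373 regions with a signal value per animal. As the values show, this coverage signal, deposited by the authors, is mean read coverage per base times 1 factor per library; it is not a read count, and reads were only estimated from it. Animals were matched to columns by the number in their titles, and replicates are numbered in accession order.

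Of 113576 exon regions, 531 with several genes were left out. A gene's level is its exon region with the highest mean. The filter of 0.5 or more in 4 or more libraries kept 9447 of 12012 genes for testing and dropped 2565. Values were fitted as log2(value + 0.1) with limma 3.58.1 in R 4.3.3 (trend and robust options, 4 group means, 16 libraries, two-sided, Benjamini-Hochberg over all genes, threshold 0.05); a fold change on this scale understates that of low genes. SE is that of the model. The first-exon index used 1189 genes with at least 6 exons and later-exon coverage of at least 5. Correlations used 100000 permutations. The script was tested on simulated data.

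The members and lists were chosen with earlier results of these data known. Named are all listed members, up to 3 genes per pathway list and comparison with the smallest unadjusted p, of which the text gives some, and the 10 genes most like MX1; OAS1 and OAS2 were added after their values were seen. Some genes under this rule are not reported here. Alternatives were the pseudocount, filter, limma options, scaling, choice of exon regions, first-exon index as covariate, and leaving out libraries.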

Additional observations from a re-analysis of the deposited data

Results flagged for a closer look

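Within groups of 4 libraries, 28 groups (7 genes in 4 groups) were examined for a library far from the other 3, and chance marks about 1 in 20 such groups. IFIT3 was marked in 2 groups: 0.23 in HG-HI replicate 1 and 0.24 in HG-LI replicate 1, each with the other 3 libraries listed at 0. Both values rest on at most 2 estimated reads. With the other 3 at 0, any value above 0 is marked, so the rate of 1 in 20 does not hold for these. IFITM3 was marked in LG-LI, where replicate 3, a library low in first exons, was listed at 0 and the other 3 stood at 11.34 to 12.87.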

How the results depend on the processing

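For the 5 tested genes other than MX1 and 4 comparisons, 24 settings gave 480 fits, of which 423 kept the sign; 0 passed the threshold, with a smallest adjusted p of 0.0864 (limma, IFITM3 for gain with the first-exon covariate). The sign turned in 57, all of values that had not passed. With a pseudocount of 1, ISG15 became 0.094 for gain, -0.084 for intake and 0.18 for HG-LI minus LG-HI, and RSAD2 0.012 for gain. With the mean over all exon regions, IFI6 became 0.12 for intake and MX2 -0.13 for the interaction. With the first-exon covariate, gain became 1.52 for ISG15 and 1.10 for IFITM3, intake -0.80 and -0.32 for the same genes, and HG-LI minus LG-HI -0.27 for MX2, 2.31 for ISG15, 0.55 for IFI6 and 1.43 for IFITM3. Without the 5 libraries low in first exons, which leaves 1 library of HG-LI (assumed to vary like the others), gain became 0.41 for RSAD2, the interaction 1.55 for ISG15 and 0.11 for IFITM3, and the last comparison -0.31 for MX2. The causes were not tested. The pathway genes were also fitted without these 5 libraries, an alternative chosen after seeing the data: all 11 named kept their sign, and none passed the threshold either way.

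Leaving out 1 library at a time, gain ran from -0.57 to 0.38 for ISG15 and -0.19 to 0.24 for RSAD2, and intake from -0.47 to 0.48 for ISG15 and -0.54 to 0.22 for IFI6. The interaction ran from -0.38 to 0.31 for MX2, -1.69 to 0.30 for ISG15, -1.22 to 0.051 for IFI6 and -1.77 to 1.12 for IFITM3, and HG-LI minus LG-HI from -0.93 to 0.72 for ISG15 and -0.058 to 0.63 for MX2. MX1 kept its sign in these fits: 0.85 to 1.12 for intake, -2.66 to -2.12 for the interaction and -1.59 to -1.12 for the last comparison. As the levels of MX1 had a part in the choice of the set, nothing is read from this.

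Genes past the threshold over the whole table, 0 as reported, became 1379 for gain with the first-exon covariate, and 61 for gain and 2 for HG-LI minus LG-HI without the 5 libraries. The first-exon index itself tended to be lower at high gain. Among the 11 libraries not low in first exons it was -2.79 to -1.97 at high gain and -2.09 to -1.38 at low gain. Gain differences fitted with that covariate, here and above, are therefore hard to separate from the index. With all exon regions averaged, 2 genes passed the threshold for intake. Leaving out 1 library gave 0 to 58 for gain (58 without LG-LI replicate 3), 0 to 1 for intake (1 without HG-HI replicate 4) and 0 to 1 for the last comparison (1 without LG-HI replicate 3). Rescaling by median ratios moved the median of all genes for the last comparison to -0.11. No paired analysis was made, as each library is a different animal and the labels give no pairs. The filter was taken over all 16 libraries also where libraries were left out. Low read numbers limit IFIT3, and MX1 to a lesser degree.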
